A study of Mus musculus with 18 samples.

Results

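Dlg1 knock-out and wild-type intestinal stem cells were compared 2 days after tamoxifen, in 8 of the 18 libraries of the series. The 8 libraries were the columns of the 2 day count table, 4 whose names begin with Dmin_H, read as Dlg1 minus, and 4 whose names begin with WT_H. Each library came from 5000 to 10000 cells sorted by flow cytometry as intestinal stem cells from the intestinal epithelium of mice (Mus musculus) aged 8 to 16 weeks. The wild-type mice carry the genotype label wildtype and the knock-out mice Dlg1 conditional knock out, and both groups had received tamoxifen 48 hours before dissection. The Cre driver that tamoxifen activates, the floxed exons, the strain, the reporter or antibody of the sort and the number of animals per library were not stated in the sources used here. The labels do not say that replicates were separate animals, so p-values measure the spread between these libraries, which may be in part technical. Library numbers 1 to 4 follow the column order of each group, and a number pairs nothing between groups. Where 4 values are given in a row, they follow libraries 1 to 4.

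Intestinal stem cells divide at the base of the crypts, where Wnt ligands from neighbouring cells hold them in the stem cell state. Their daughters divide further and then mature into absorptive enterocytes or into secretory goblet, Paneth, enteroendocrine and tuft cells. Dlg1 encodes a scaffold protein with PDZ domains that works with Scribble and Lgl at the basolateral membrane of epithelial cells. Arhgap31 encodes a GTPase-activating protein that switches off Cdc42 and Rac1, small GTPases that organise actin and cell polarity. The title of the series joins Dlg1, Arhgap31 and Cdc42 to the response to Wnt.

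The 8 libraries held 14816933 to 40544439 counts in genes. Wild-type library 1 stood apart, with 16073 genes with a count against 17603 to 18750 in the other libraries. Mitochondrially encoded genes took 49.1% of its counts against 26.1% to 39.8%. Its total was the highest, with knock-out library 2 near it at 38400296. Of 15 mitochondrially encoded genes listed, 5 had at most 3 counts over the 8 libraries, and mt-Co3, mt-Atp6 and mt-Atp8 had 0. These shares therefore cover only part of the mitochondrial genes, and why the counts are missing was not tested. The summed level of Y-linked genes was 159 to 196 CPM in wild-type libraries 3 and 4 and knock-out libraries 1 and 2, and at most 0.307 CPM in the other 4, so each group held 2 libraries of either kind. The 4 libraries of a group therefore did not all come from the same animal, though libraries of the same kind may have. Levels are given as CPM, for which the counts of a library were divided by its total over the genes tested times its TMM factor. That factor was 0.682 in wild-type library 1 and 0.937 to 1.17 in the other libraries. CPM therefore do not sum to the same value in every library, and the low factor raises the CPM of wild-type library 1. The stem cell label was checked against its markers: 25 of 25 marker genes in the table passed the filter on low counts, and their summed level was 7909.6 to 8315 CPM in wild-type and 6547 to 7487 CPM in knock-out libraries. Of fibroblast and smooth muscle markers 3 of 16 passed, with summed levels of 1.63 to 6.34 and 4.24 to 7.65 CPM, and Dcn and Lum were at 0 in all 8 libraries. Of T and intraepithelial lymphocyte markers 5 of 17 passed, with sums of 4.37 to 16.7 and 9.30 to 19.3 CPM. Endothelial Cdh5 and Emcn and the globin genes were at 0 throughout. Markers of mature epithelial cells were present. Brush border genes summed to 3006 to 4067 CPM in wild-type and 2752 to 6006 CPM in knock-out libraries. Goblet cell markers summed to 789 to 879 and 772 to 1704 CPM, and Paneth cell markers to 425 to 3825 and 1079 to 2678 CPM. The check therefore does not show that the libraries are free of mature epithelial cells.

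No gene was called. The quasi-likelihood F-test of edgeR, adjusted by Benjamini-Hochberg over 13031 genes, gave 0 genes (0%) with an adjusted p under 0.05, and so did limma voom, while edgeR's likelihood-ratio test gave 8 and DESeq2 13 (0.0998%). An unadjusted p under 0.05 was reached by 355 genes higher in the knock-out (2.72%) and 285 lower (2.19%). In 265 genes (2.03%) every knock-out library lay above every wild-type library, and in 253 (1.94%) every one lay below. The fold change was positive in 51% and negative in 49% of the genes tested. These shares are the background against which counts within a gene group are read below. The gene lists were chosen with earlier results of these data known, so a share above the background describes a list and tests nothing. All 13 genes of DESeq2 are described below with their values. The column names carry numbers of unstated meaning that fall in 3 series, one held by wild-type libraries 1 and 2, one by wild-type library 3 and knock-out library 1 and one by the other 4. With these series as a block, an alternative chosen after seeing the data, 146 genes were higher and 27 lower at an unadjusted p under 0.05, and none was called. No gene named below passed the adjusted threshold of the quasi-likelihood test. Every fold change is knock-out over wild type on the log2 scale, and a log2 value in parentheses is the fold change with its standard error (SE).

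**Figure D1:**
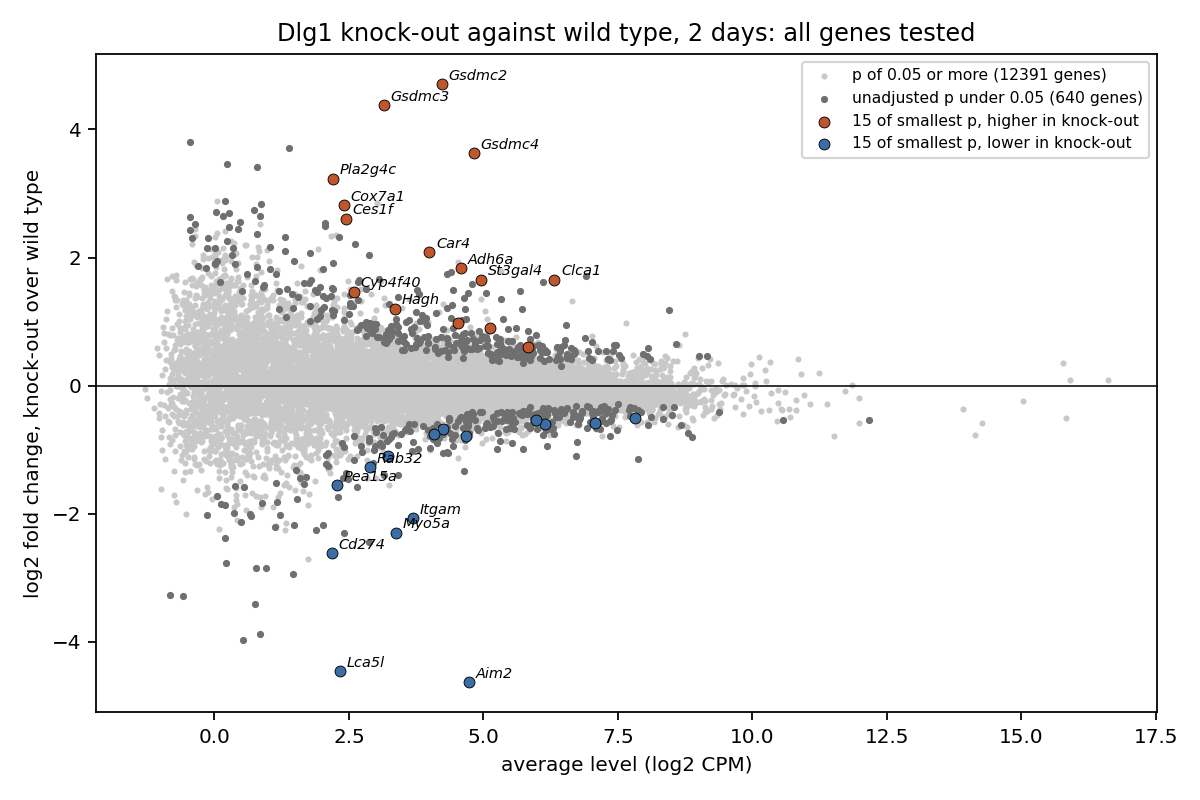
Average level (log2 CPM, horizontal) against log2 fold change of knock-out over wild type (vertical) for the 13031 genes tested at 2 days, 4 libraries a group. Dark grey points are the 640 genes (4.91%) at an unadjusted p under 0.05, and coloured points are the 15 genes of smallest p in each direction among those with an average log2 CPM of at least 2; the 3 gasdermin C genes lie at the top and Aim2 and Lca5l at the bottom.

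The targeted gene was lower on average, with overlap. Dlg1 (ENSMUSG00000022770, chromosome 16, 31663443 to 31875129, plus strand, GRCm38) was measured at 48.3, 63.5, 56.3 and 69.5 CPM in wild-type and 43.3, 58.0, 38.4 and 43.1 CPM in knock-out libraries, a log2 fold change of -0.38 ± 0.19 (SE). Knock-out library 2 lay inside the wild-type range and the other knock-out libraries below it. Counts are per gene, so reads from any exons that a deletion leaves in place would be counted too, which limits this check of the labels. Why Dlg1 reads remained was not tested. Arhgap31, by contrast, did not overlap, at 1.67 to 5.94 CPM in wild-type and 0.246 to 0.8293 CPM in knock-out libraries, a log2 fold change of -2.84 ± 0.69 (SE) that rests on 4 to 15 counts per knock-out library. Dlg1 and Arhgap31 lie on the same chromosome. A gene of still lower level, Zfp354c, which encodes a zinc finger protein of the KRAB family and was singled out after its values were seen, stood at 2.72, 1.83, 2.82 and 2.86 CPM in the wild type and 0.195, 0.0557, 0.221 and 0.184 CPM in the knock-out. Its groups did not overlap, with a log2 fold change of -3.97 ± 0.70 (SE) that rests on 2 to 4 counts per knock-out and 37 to 75 per wild-type library.

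The highest fold changes among the genes named belonged to 3 neighbouring copies of gasdermin C. Gasdermins are proteins whose released amino-terminal part forms pores in membranes, and the C group is an epithelial branch that has multiplied in the mouse. Gsdmc2, Gsdmc3 and Gsdmc4 lie side by side on the minus strand of chromosome 15 (GRCm38), at 63824346 to 63845177, 63857724 to 63878558 and 63891264 to 63912297. Their coding sequences are near copies, with 97.1% identity between Gsdmc2 and Gsdmc3, 93.8% between Gsdmc2 and Gsdmc4 and 93.8% between Gsdmc3 and Gsdmc4. The first 120 coding bases of each, from GENCODE M21 transcripts, 5′ to 3′, are printed because they show how little separates reads of the copies; capitals mark the 2 positions at which the copies are not all alike.

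Gsdmc2: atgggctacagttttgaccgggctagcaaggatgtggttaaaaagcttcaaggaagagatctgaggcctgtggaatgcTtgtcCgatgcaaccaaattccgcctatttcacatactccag
Gsdmc3: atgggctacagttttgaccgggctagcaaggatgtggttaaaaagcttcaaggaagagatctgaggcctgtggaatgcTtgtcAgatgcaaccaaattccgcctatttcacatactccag
Gsdmc4: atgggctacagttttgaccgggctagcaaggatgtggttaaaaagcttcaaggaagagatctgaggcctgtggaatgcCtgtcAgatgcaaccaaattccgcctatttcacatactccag

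Of all runs of 50 bases in the annotated transcripts of each gene, 51.3% in Gsdmc2, 46.0% in Gsdmc3 and 39% in Gsdmc4 occur in another gene of the cluster, so short reads from these stretches cannot be given to a single copy. How the authors counted such reads is not given in the sources used here, and the level of any single copy is uncertain. Gsdmc2 stood at 1.12, 2.72, 0.978 and 0.647 CPM in wild-type and 4.79, 14.2, 66.0 and 59.4 CPM in knock-out libraries. Gsdmc4 stood at 7.60, 5.84, 1.90 and 1.29 CPM in the wild type and 10.2, 18.1, 116 and 65.4 CPM in the knock-out, and Gsdmc3 at 0.507, 1.78, 0.921 and 0 CPM in the wild type and 0.879, 4.20, 37.0 and 25.2 CPM in the knock-out. Knock-out libraries 3 and 4 held the highest values of all 3 copies, knock-out library 2 came next, and knock-out library 1 was above every wild-type library for Gsdmc2 and Gsdmc4 but not for Gsdmc3. Summed over the 3 copies, which removes the split between them, the level was 9.23, 10.3, 3.80 and 1.94 CPM in wild-type and 15.8, 36.5, 219 and 150.0 CPM in knock-out libraries. The sums did not overlap, and their means were 6.33 ± 4.09 and 105 ± 95.9 CPM (SD, n = 4 each). The log2 fold changes were 4.71 ± 0.78 (SE) for Gsdmc2, 3.63 ± 0.77 (SE) for Gsdmc4 and 4.38 ± 1.10 (SE) for Gsdmc3. The fourth annotated member of the cluster, Gsdmc, had 0 counts in all 18 libraries, although 16.1% of its own 50-base runs are shared with the other copies.

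The gasdermin C genes belong to a list of gasdermins and inflammasome genes. Of 20 members tested, 4 were higher and 1 lower at an unadjusted p under 0.05, and the higher ones were the 3 gasdermin C genes and Pycard, the adaptor that joins inflammasome sensors to caspase-1. Pycard stood at 80.1, 76.3, 74.7 and 89.2 CPM in wild-type and 89.4, 81.2, 148 and 113 CPM in knock-out libraries, a log2 fold change of 0.43 ± 0.19 (SE) with overlapping groups, and 0.23 without knock-out library 3. The single lower member was Aim2, a sensor of cytosolic DNA, at 77.7, 60.0, 3.74 and 60.9 CPM in wild-type and 0.879, 0.835, 2.27 and 4.42 CPM in knock-out libraries. Wild-type library 3 lay among the knock-out libraries for this gene and the other wild-type libraries stood far above them, which gave -4.63 ± 0.81 (SE). Without wild-type library 3 Aim2 had -5.03 and an adjusted p of 0.0103 (quasi-likelihood F-test of edgeR, Benjamini-Hochberg adjusted, range 4.27e-05 to 0.985 over the alternatives), the single gene called when 1 library was left out.

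The gasdermin C genes are known for their induction by the type 2 cytokines interleukin-4 and interleukin-13, and 2 further genes of that kind were also highest in knock-out library 3. Pla2g4c, a cytosolic phospholipase A2, stood at 0.434, 1.58, 0.978 and 0.486 CPM in wild-type and 0.977, 2.53, 20.6 and 8.66 CPM in knock-out libraries, a log2 fold change of 3.23 ± 0.85 (SE). Clca1, a secreted goblet cell metalloprotease, stood at 31.2, 55.5, 32.6 and 34.0 CPM in the wild type and 36.9, 141, 198 and 107 CPM in the knock-out, a log2 fold change of 1.66 ± 0.40 (SE). In both genes knock-out library 1 lay within the wild-type range and the other 3 knock-out libraries above it. Of the 12 members of the type 2 response list tested, 10 had a positive fold change, 3 were higher and 1 lower at an unadjusted p under 0.05, and the median was 0.55 against 0.01 over all genes. That median was 0.31 without knock-out library 1, 0.36 without wild-type library 4 and 0.89 without wild-type library 3. The remaining higher member was Alox5ap, which presents arachidonic acid for leukotriene synthesis in tuft cells, at 0.0576 to 0.326 against 0.635 to 1.77 CPM, and the lower one was the mucosal pentraxin Mptx1, which has a close copy, at -2.93 ± 1.03 (SE). The interleukin-4 and interleukin-13 signal transducer Stat6 had 0.15 ± 0.14 (SE). Retnlb had 27 counts and Il25 6 counts over the 8 libraries and were not tested, and Chil4 was at 0. Without knock-out library 3 the fold changes of Pla2g4c, Clca1 and Gsdmc2 were 2.195, 1.30 and 4.23.

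**Figure D2:**
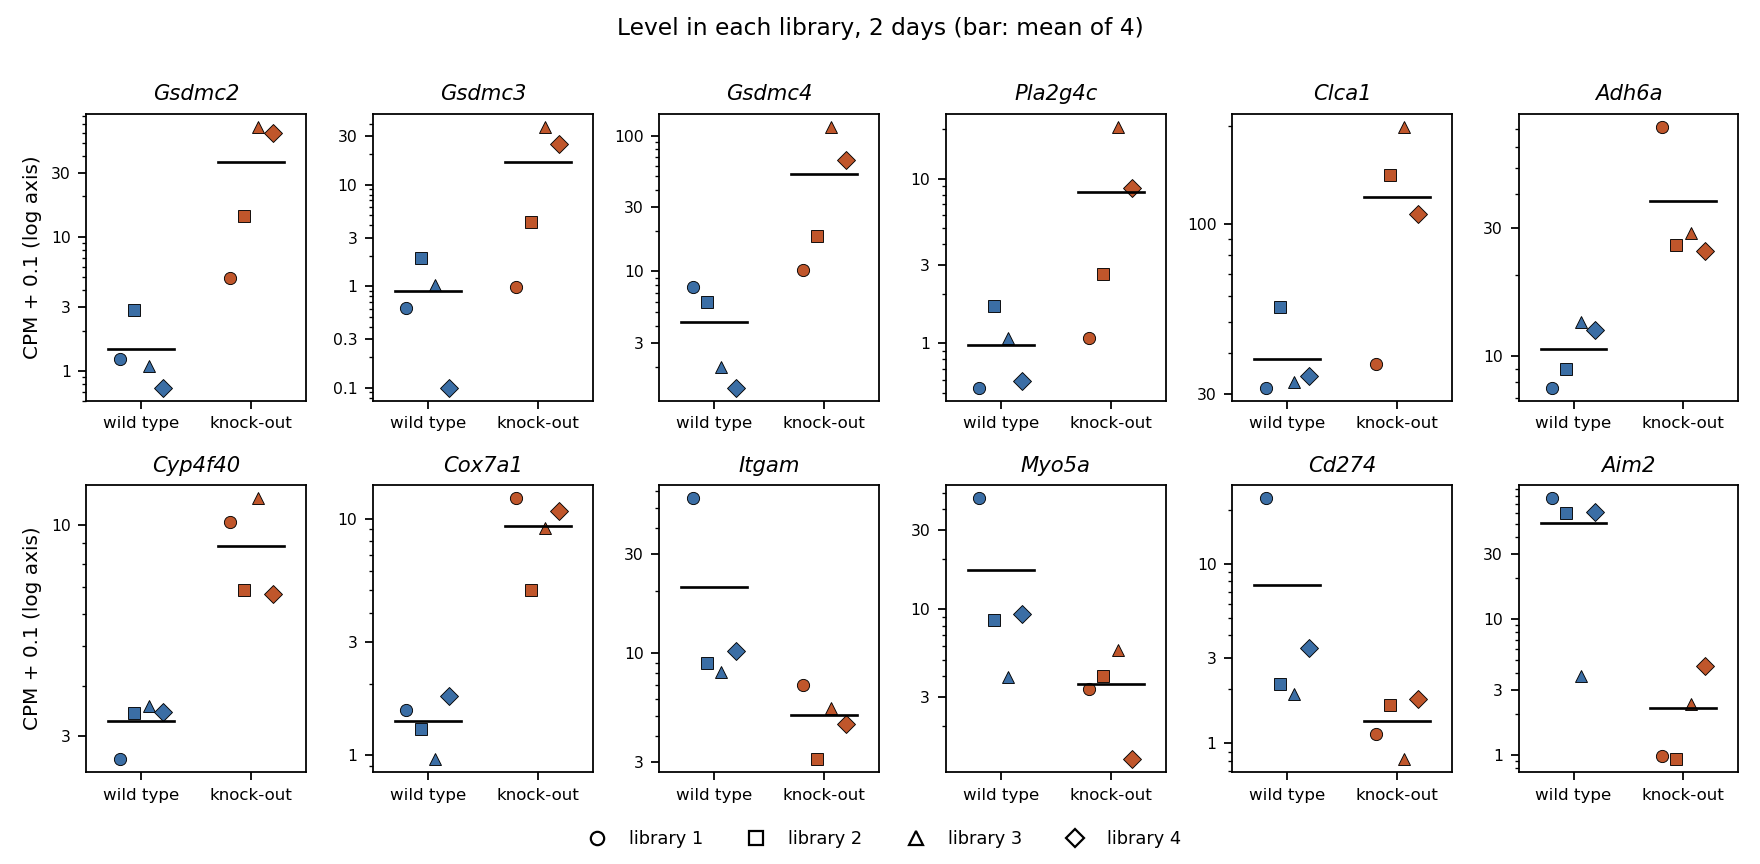
Level in each library at 2 days (CPM plus 0.1 on a log axis) of 12 of the genes named, for 4 wild-type (blue) and 4 knock-out (orange) libraries; symbols give the library number and bars the mean of 4. The gasdermin C genes and Pla2g4c peak in knock-out libraries 3 and 4, Adh6a in knock-out library 1, and Itgam, Myo5a and Cd274 in wild-type library 1.

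A second set of higher values was found in genes of the absorptive enterocyte, and knock-out library 1 held the highest level of most of those named here. Adh6a, of the alcohol dehydrogenase family, stood at 7.53, 8.86, 13.4 and 12.5 CPM in wild-type and 71.1, 25.8, 28.6 and 24.6 CPM in knock-out libraries, a log2 fold change of 1.83 ± 0.36 (SE). Ces1f, a carboxylesterase, stood at 0.217, 1.53, 1.50 and 2.81 CPM in the wild type and 18.5, 8.79, 4.04 and 5.40 CPM in the knock-out (log2 2.61 ± 0.69 SE). Cyp4f40, a cytochrome P450 of the fatty acid hydroxylase group, stood at 2.53, 3.32, 3.45 and 3.35 CPM in the wild type and 10.1, 6.79, 11.6 and 6.63 CPM in the knock-out (log2 1.47 ± 0.34 SE). The groups were apart in all 3 genes, each of which has close copies in the genome whose reads may have been split. Of 51 genes of xenobiotic and retinoid metabolism tested, 46 had a positive fold change, and 13 were higher and 0 lower at an unadjusted p under 0.05 (25.5% against 2.72% of all genes). In 6 the knock-out lay above the wild type without overlap, against 2.03% of all genes. The list holds Ces1f and was chosen with earlier results of these data known, so its share is a description. Gstm3, a glutathione transferase, had 28.0 to 37.2 CPM in wild-type and 38.4 to 132 CPM in knock-out libraries (log2 1.19 ± 0.32 SE), and Cyp4f14 had 10.6 to 17.4 and 19.1 to 68.8 CPM (log2 1.37 ± 0.38 SE).

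Transport and digestion genes were likewise highest in knock-out library 1. In lipid absorption all 21 of 21 members tested were positive and the median was 0.99. An unadjusted p under 0.05 was reached by 9 (42.9% against 2.72% of all genes higher), and 2 had groups apart (2.03% of all genes). The apolipoprotein Apoa4 stood at 14.3, 40.3, 18.9 and 35.1 CPM in the wild type and 206, 19.3, 20.9 and 54.6 CPM in the knock-out (log2 1.47 ± 0.66 SE). Only knock-out libraries 1 and 4 lay above the wild type, and the value was 0.21 without knock-out library 1 and -0.01 without library 1 of both groups. The fatty acid binding protein Fabp1 had 1.62 ± 0.53 (SE) and 0.77 without knock-out library 1, and Dgat1, which makes triglyceride, 0.72 ± 0.32 (SE). Mttp, which loads lipid onto apolipoprotein B, stood at 44.5, 67.6, 64.8 and 76.1 CPM in wild-type and 215, 80.8, 79.1 and 112 CPM in knock-out libraries (log2 0.95 ± 0.30 SE). Creb3l3, a transcription factor of triglyceride metabolism, stood at 0.797, 7.38, 5.01 and 2.59 CPM in the wild type and 22.3, 10.4, 4.87 and 12.3 CPM in the knock-out (log2 1.66 ± 0.61 SE). In sugar and peptide transport all 14 of 14 members were positive with a median of 0.76, and 4 reached an unadjusted p under 0.05 in that direction, the fructose transporter Slc2a5 (log2 1.34 ± 0.46 SE), the glucose transporter Slc2a2 (log2 2.32 ± 1.06 SE) and the pair that follows. Slc2a2 stood at 25.6 CPM in knock-out library 1, with knock-out libraries 2 and 3 inside the wild-type range of 0.109 to 2.32 CPM, and without knock-out library 1 it had 0.46, Slc2a5 0.83 and Mttp 0.51. Slc7a9, the light chain of the cystine transporter, stood at 1.12, 3.52, 4.20 and 3.40 CPM in the wild type and 18.8, 8.27, 4.64 and 6.57 CPM in the knock-out (log2 1.65 ± 0.52 SE). Khk, the first enzyme of fructose breakdown, stood at 5.50, 26.6, 17.4 and 17.2 CPM in the wild type and 46.9, 33.3, 24.1 and 33.1 CPM in the knock-out (log2 1.05 ± 0.39 SE). Of 23 genes of the enterocyte brush border list 19 were positive with a median of 0.64, and 6 reached an unadjusted p under 0.05 in that direction. Among them Slc51a was the 1 list member with groups apart, at 1.19 to 4.80 and 6.93 to 14.7 CPM (log2 1.51 ± 0.44 SE). It encodes a subunit of the basolateral bile acid exporter, not a brush border protein. Sis, sucrase-isomaltase, reached 511 CPM in knock-out library 1 and stood at 45.7, 49.5 and 131 CPM in the other knock-out libraries, against 46.8 to 79.9 CPM in the wild type.

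The dependence on single libraries was measured per list. The mean log2 CPM of the lipid absorption genes, relative to the wild-type mean, was 1.85, 0.26, 0.20 and 0.95 in knock-out libraries and -0.42, 0.21, 0.17 and 0.04 in wild-type libraries. For sugar and peptide transport the knock-out values were 2.06, 0.08, -0.13 and 0.91, and for the brush border 1.67, 0.16, -0.31 and 0.61. Knock-out library 1 was highest in each, knock-out library 4 came second, and knock-out libraries 2 and 3 lay within or near the wild-type range. Without knock-out library 1 the list medians were 0.47 for lipid absorption, 0.06 for sugar and peptide transport, 0.11 for the brush border and 0.27 for xenobiotic metabolism, from 0.99, 0.76, 0.64 and 0.54 with all libraries. Adh6a, Ces1f and Cyp4f40 kept positive values without that library, at 1.31, 2.005 and 1.39. Transcription factors that set the enterocyte lineage had overlapping groups: Cdx2 had 0.54 ± 0.29 (SE) and Elf3 0.34 ± 0.21 (SE). In bulk libraries more cells of a type and more RNA per cell cannot be told apart.

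**Figure D3:**
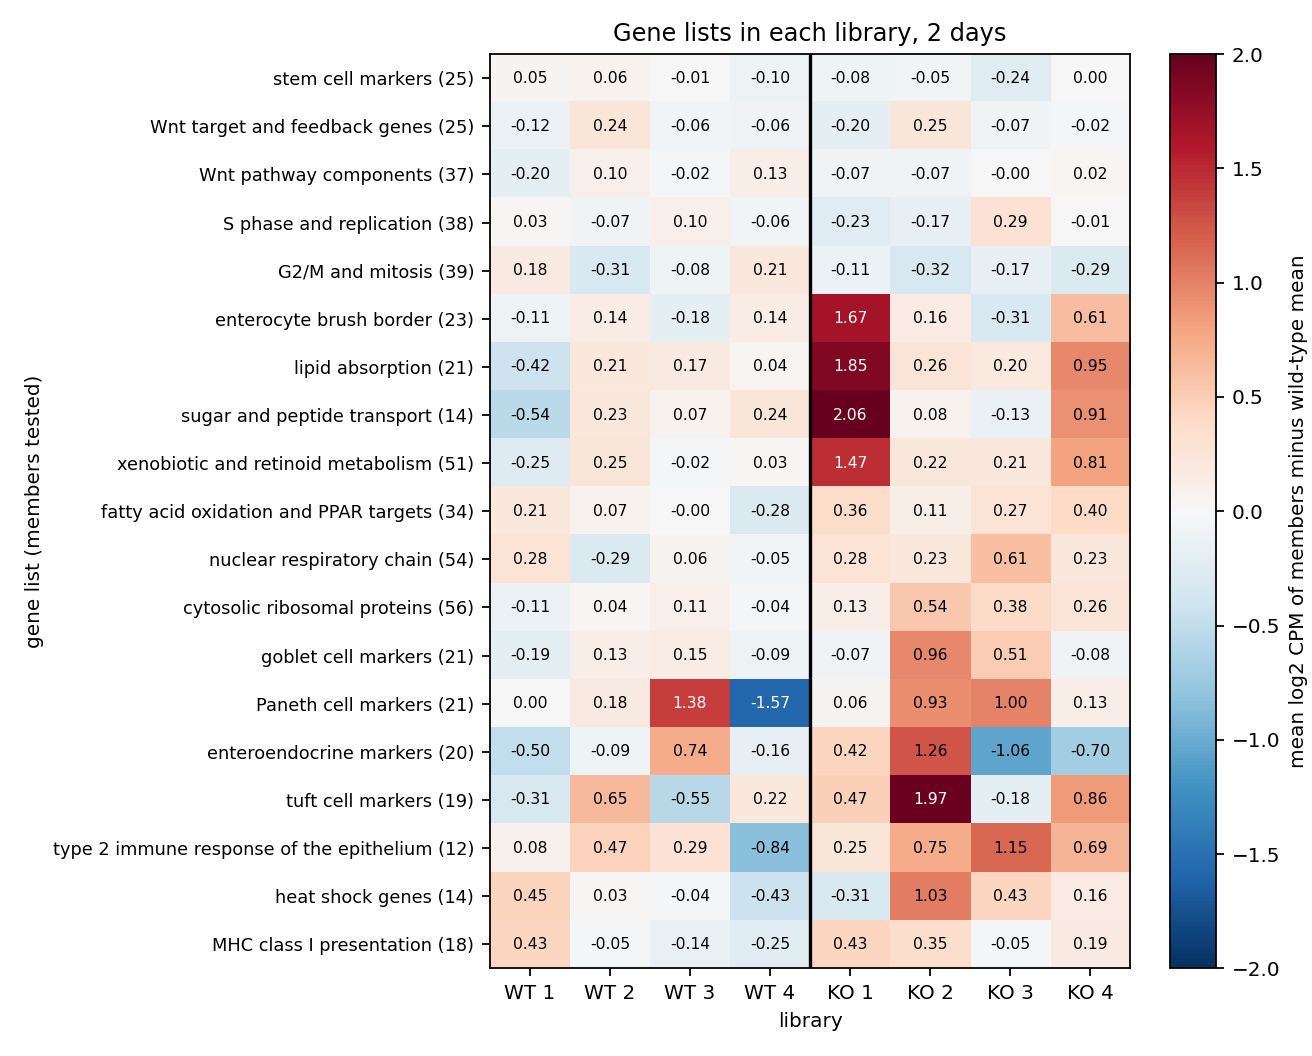
Mean log2 CPM of the tested members of each gene list minus the wild-type mean of that list, for each of the 8 libraries (columns); numbers in parentheses are members tested, red is above and blue below the wild-type mean. The absorptive lists peak in knock-out library 1, tuft and enteroendocrine markers in knock-out library 2, and ribosomal protein genes are above every wild-type library in all 4 knock-out libraries.

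A pair of genes for a surface enzyme and a Golgi enzyme also had groups apart. Car4, a carbonic anhydrase anchored on the cell surface, stood at 1.96, 8.96, 5.24 and 8.09 CPM in wild-type and 27.6, 14.9, 25.2 and 35.1 CPM in knock-out libraries (log2 2.08 ± 0.43 SE). St3gal4, a sialyltransferase that caps glycoproteins, stood at 13.6, 16.8, 12.2 and 16.9 CPM in the wild type and 74.0, 23.5, 35.8 and 54.1 CPM in the knock-out (log2 1.65 ± 0.32 SE), and an annotated antisense gene lies over part of it, so without strand information its reads may be mixed. No other tested member of their families reached an unadjusted p under 0.05. Of 6 carbonic anhydrases tested 1 was higher, which was Car4, and of 12 sialyl-, fucosyl- and related glycosyltransferases tested 1, which was St3gal4. Car4 was also the 1 higher gene of 11 markers of the distal small intestine and colon, while 3 of 15 proximal markers were higher, Adh6a, Fabp1 and the folate transporter Slc46a1 (log2 1.39 ± 0.58 SE).

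Several small subunits of the respiratory chain had higher values in the knock-out. Cox7a1, the muscle-type form of a cytochrome c oxidase subunit, stood at 1.45, 1.19, 0.863 and 1.67 CPM in wild-type and 12.1, 4.87, 9.01 and 10.7 CPM in knock-out libraries, a log2 fold change of 2.82 ± 0.43 (SE), and it had the smallest p of all genes (quasi-likelihood F-test of edgeR, Benjamini-Hochberg adjusted, adjusted p = 0.317). Cox4i1, a core regulatory subunit of the same enzyme, stood at 93.4, 131, 167 and 146 CPM in the wild type and 189.5, 210.4, 233 and 202 CPM in the knock-out (log2 0.64 ± 0.18 SE). Cox6b1 stood at 85.7, 104, 102 and 109 CPM in the wild type and 129, 137, 177 and 141 CPM in the knock-out (log2 0.55 ± 0.15 SE). In these 3 genes and in the complex I subunits Ndufa3 (log2 0.57 ± 0.17 SE) and Ndufs8 (log2 0.49 ± 0.15 SE) the groups did not overlap. Of 54 nuclear genes of the respiratory chain tested 44 were positive, and 17 were higher (31.5% against 2.72% of all genes) and 0 lower at an unadjusted p under 0.05. In 13 the knock-out lay above the wild type without overlap, against 2.03% of all genes, and the list median was 0.26. The mean of the list relative to the wild type was 0.28, -0.29, 0.06 and -0.05 in wild-type and 0.28, 0.23, 0.61 and 0.23 in knock-out libraries, so wild-type library 1 lay above 3 of the 4 knock-out libraries. The median was 0.14 without wild-type library 2, 0.40 without wild-type library 1 and 0.17 without knock-out library 3. The ATP synthase alpha subunit gene Atp5a1 had -0.44 ± 0.37 (SE), with 2184 CPM in wild-type library 1 against 566 to 932 CPM in the other 7 libraries.

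Cytosolic ribosomal protein genes, which build the translation machinery, had mostly positive fold changes. Of 56 tested 48 were positive, and 9 were higher (16.1% against 2.72% of all genes) and 0 lower at an unadjusted p under 0.05. In 9 the knock-out lay above the wild type without overlap, against 2.03% of all genes, and the list median was 0.36. Rps21 stood at 80.8, 82.8, 95.0 and 74.9 CPM in wild-type and 101, 118, 134 and 138 CPM in knock-out libraries (log2 0.55 ± 0.16 SE). Its groups did not overlap. The summed level of the list was 6094 to 7411 CPM in wild-type and 7552 to 9144 CPM in knock-out libraries, without overlap. In fatty acid oxidation and PPAR targets 27 of 34 members were positive with a median of 0.22. In 5 the knock-out lay above the wild type without overlap, against 2.03% of all genes. Among them were the carnitine carrier Slc25a20 (log2 0.52 ± 0.19 SE) and the electron transfer flavoprotein subunit Etfb (log2 0.56 ± 0.23 SE).

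Fold changes varied with exon length across all genes, and the genes of these lists are short. When the 12963 tested genes with an annotated exon length were cut into 10 equal bins by that length, the median log2 fold change was 0.22 in the shortest bin (57 to 1559 bases) and -0.11 in the longest. In the shortest bin 87 genes were higher and 8 lower at an unadjusted p under 0.05, and in the longest bin 12 and 51. Across genes, which are not independent replicates and share the same 8 libraries, Spearman's rho between length and log2 fold change was -0.21. The median deviation of the shortest bin from the wild-type mean was 0.13, 0.32, 0.35 and 0.23 in knock-out libraries and 0.06, -0.02, 0.08 and -0.06 in wild-type libraries, so the groups did not overlap. The median exon length was 1814 bases over the respiratory chain genes and 1810.5 bases over the ribosomal protein genes, against 4250.0 over all genes tested. Other lists with positive medians were also shorter, at 3016 bases for lipid absorption, 2359 for xenobiotic metabolism, 2121 for goblet cell markers, 3743 for sugar and peptide transport and 3762 for the brush border. Over all alternatives, removal of the length trend included, the lowest medians of these lists were 0.30, 0.21, 0.20, 0.06 and 0.09. Lists with negative medians, described below, were longer, at 6233 bases for stem cell markers, 6720 for Wnt pathway components and 4919 for G2/M and mitosis. Over all alternatives, removal of the length trend included, their medians nearest 0 were -0.02, -0.004 and -0.11. With the trend on length removed, an alternative chosen after seeing the data, the list medians were 0.04 for the respiratory chain and 0.10 for ribosomal proteins, from 0.26 and 0.36. The median over all genes was -0.07 in that fit and 0.01 without the correction, a common shift that is part of these moves. At an unadjusted p under 0.05 that fit had 191 genes higher and 369 lower, against 355 and 285, and the same shift bears on this split. Cox7a1, of 535 bases, had 2.46 and Cox4i1 0.40. Over all alternatives the lowest values of the other genes described were 0.22 for Cox6b1, 0.25 for Ndufa3, 0.21 for Ndufs8 and 0.23 for Rps21. What the trend on length comes from was not tested.

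**Figure D4:**
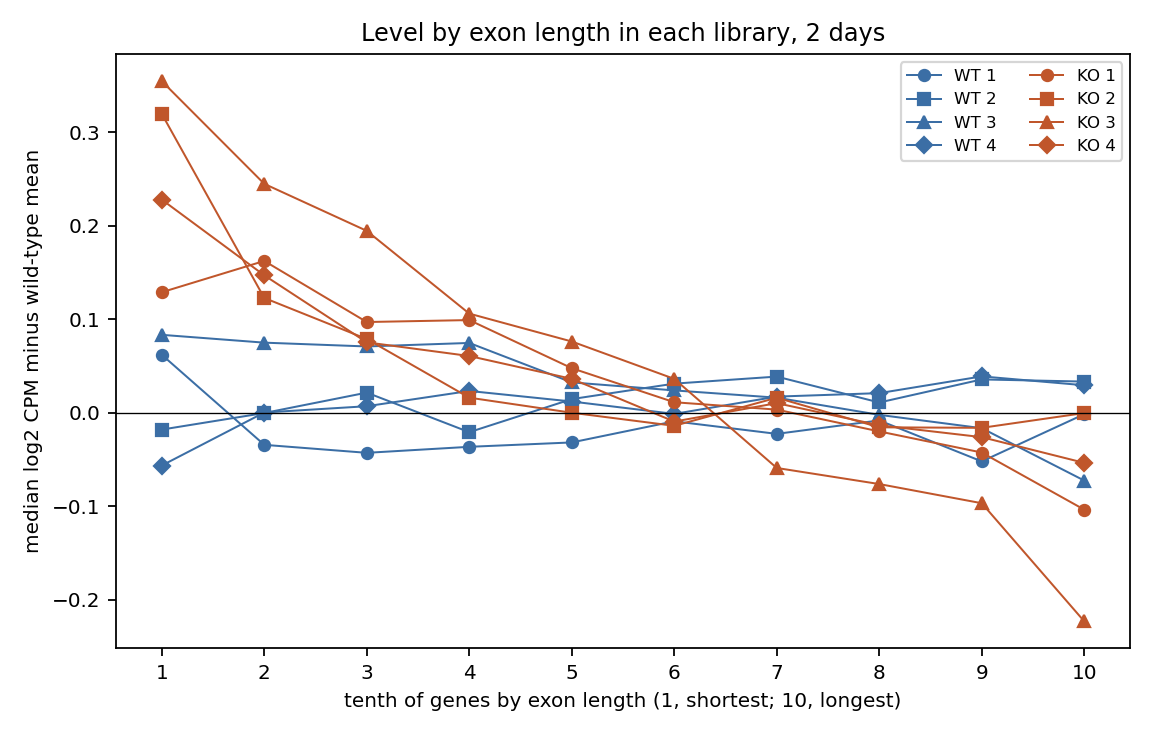
Median log2 CPM minus the wild-type mean over the genes in each of 10 bins of exon length (horizontal, shortest to longest), 1 line per library, 4 wild type (blue) and 4 knock-out (orange). At the shortest bin the knock-out lines lie between 0.13 and 0.35 and the wild-type lines between -0.06 and 0.08.

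The other higher genes of smallest p were housekeeping enzymes and small proteins with groups apart. Aprt, which salvages adenine, stood at 47.7, 39.3, 48.9 and 44.2 CPM in wild-type and 68.8, 70.6, 71.1 and 62.0 CPM in knock-out libraries (log2 0.60 ± 0.15 SE), a narrow spread in both groups. Hagh, which clears methylglyoxal adducts of glutathione, stood at 4.53, 7.38, 6.22 and 6.53 CPM in the wild type and 11.6, 10.5, 14.7 and 19.9 CPM in the knock-out (log2 1.20 ± 0.30 SE). Atp6v0b, a membrane subunit of the vacuolar proton pump, stood at 17.8, 13.8, 18.7 and 12.0 CPM in the wild type and 19.1, 35.1, 33.2 and 34.7 CPM in the knock-out (log2 0.97 ± 0.25 SE), with knock-out library 1 just above the wild type and the other 3 well above. Crip1, a LIM-domain protein first known from the intestine, stood at 15.9, 27.3, 30.4 and 23.6 CPM in the wild type and 59.5, 37.3, 42.5 and 42.5 CPM in the knock-out (log2 0.90 ± 0.24 SE). Among the 15 higher genes the groups were apart in 12, and the highest library was knock-out library 3 in 7, library 1 in 5, library 4 in 2 and library 2 in 1; since the genes were picked by p in this comparison, these counts describe them and test nothing.

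Among the lower genes, 4 had a far higher level in wild-type library 1 than in any other library. Itgam, an integrin chain of myeloid cells, stood at 55.6, 8.91, 7.9998 and 10.1 CPM in wild-type and 6.94, 3.01, 5.36 and 4.48 CPM in knock-out libraries (log2 -2.07 ± 0.61 SE), and another annotated gene lies over its exons on the same strand. Myo5a, a motor that carries vesicles along actin, stood at 46.6, 8.57, 3.86 and 9.33 CPM in the wild type and 3.22, 3.90, 5.64 and 1.17 CPM in the knock-out (log2 -2.29 ± 0.70 SE). Cd274, the checkpoint ligand PD-L1, stood at 23.2, 2.03, 1.78 and 3.29 CPM in the wild type and 1.03, 1.53, 0.719 and 1.66 CPM in the knock-out (log2 -2.62 ± 0.81 SE), with an antisense neighbour over part of it. Lca5l, a relative of the ciliary protein lebercilin, stood at 34.6 CPM in wild-type library 1 and at most 1.67 CPM in the other 7 libraries (log2 -4.46 ± 1.39 SE). Without wild-type library 1 the fold changes were -0.87 for Itgam, -1.05 for Myo5a, -0.94 for Cd274 and -1.05 for Lca5l, each of the same sign and nearer 0. Among other myeloid markers, Cd68 had 8.83 to 20.8 CPM in wild-type and 10.6 to 21.9 CPM in knock-out libraries, and S100a8 and S100a9 were at 0. The summed level of the myeloid list, Itgam included, was 30.7 to 67.6 and 22.5 to 39.5 CPM, with 4 of 18 members tested.

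A further set of lower genes had smaller fold changes and groups apart. Rab32, a small GTPase of lysosome-related organelles, stood at 16.4, 7.48, 8.23 and 9.17 CPM in wild-type and 4.49, 4.04, 5.58 and 2.95 CPM in knock-out libraries (log2 -1.28 ± 0.36 SE). Kif15, a spindle kinesin, stood at 309, 227, 236 and 287 CPM in the wild type and 197, 179.9, 172 and 199 CPM in the knock-out (log2 -0.50 ± 0.15 SE). Tead1, the DNA-binding partner of Yap, stood at 209.8, 143, 177 and 119 CPM in the wild type and 112, 118, 97.9 and 104 CPM in the knock-out (log2 -0.59 ± 0.18 SE). All knock-out libraries lay below all wild-type libraries in these 3 genes. Sema3c, a secreted guidance protein, stood at 36.4, 41.9, 25.2 and 24.8 CPM in the wild type and 15.7, 22.99, 14.8 and 20.997 CPM in the knock-out (log2 -0.78 ± 0.25 SE), Arsb, a lysosomal sulfatase, had 8.23 to 17.4 against 3.09 to 7.24 CPM (log2 -1.11 ± 0.35 SE), and Pea15a, a small adaptor that binds ERK, had 3.47 to 12.1 against 1.84 to 2.95 CPM (log2 -1.55 ± 0.44 SE), with an antisense neighbour over part of its exons. Groups were apart in each of these genes too. Ralgps2, Ccdc50, Rbak and the uncharacterised gene D1Ertd622e completed the 15, at -0.59, -0.53, -0.67 and -0.75, also with groups apart. Without wild-type library 1 Rab32, Kif15, Tead1, Sema3c, Arsb and Pea15a had -0.96, -0.42, -0.45, -0.72, -0.91 and -1.17. The highest library was wild-type library 1 in 13 of the 15 lower genes and wild-type library 2 in the other 2.

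Most genes of mitosis had a negative fold change. Of 39 genes of G2/M and mitosis tested 33 were negative, and 11 were lower (28.2% against 2.19% of all genes) and 0 higher at an unadjusted p under 0.05. In 4 the knock-out lay below the wild type without overlap, against 1.94% of all genes. Kif20b, a kinesin of cytokinesis, stood at 267, 158, 144 and 206 CPM in wild-type and 135, 141, 118 and 135 CPM in knock-out libraries (log2 -0.55 ± 0.20 SE). Ckap2l, a spindle protein, stood at 186, 66.0, 70.04 and 75.4 CPM in the wild type and 63.8, 57.4, 52.2 and 61.8 CPM in the knock-out (log2 -0.76 ± 0.30 SE). Mki67, the proliferation antigen, had 1274 to 2331 against 1224 to 1361 CPM (log2 -0.36 ± 0.21 SE), and Top2a, topoisomerase II alpha, 572 to 889 against 538 to 602 CPM (log2 -0.40 ± 0.18 SE). Per library the mean of the list was 0.18, -0.31, -0.08 and 0.21 in wild-type and -0.11, -0.32, -0.17 and -0.29 in knock-out libraries, and wild-type library 2 had nearly the lowest value of the 8. The list median of -0.20 was -0.11 without wild-type library 4 and -0.28 without wild-type library 2. Without wild-type library 1 Kif20b had -0.36, Ckap2l -0.27 and Mki67 -0.16. In the list of S phase and replication, whose difference from the mitosis list was not tested, 16 of 38 were positive with a median of -0.05, and 1 was lower at an unadjusted p under 0.05, the primase subunit Prim1 (log2 -0.56 ± 0.23 SE, or -0.24 without wild-type library 1).

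Stem cell and Wnt genes had small values, more of them negative than positive. Lgr5, the R-spondin receptor that marks these cells, stood at 294, 257, 181 and 156 CPM in wild-type and 215, 178, 116 and 165 CPM in knock-out libraries (log2 -0.40 ± 0.23 SE). Ascl2, a transcription factor of stem cell fate, stood at 77.3, 33.6, 35.5 and 25.9 CPM in the wild type and 29.2, 19.1, 31.4 and 40.3 CPM in the knock-out (log2 -0.53 ± 0.33 SE). Olfm4, a secreted stem cell glycoprotein, stood at 2168, 3014, 3305 and 3324 CPM in the wild type and 2724, 2258, 2486 and 2258 CPM in the knock-out (log2 -0.28 ± 0.19 SE). The groups overlapped in all 3. With the column number series as a block Lgr5 had 0.08 and Ascl2 0.02, so their direction turned, and without wild-type library 1 they had -0.24 and -0.09. Of 25 stem cell markers 17 were negative, none had an unadjusted p under 0.05, and the median was -0.10, although the sums of CPM given above did not overlap between groups. Of 25 Wnt target and feedback genes 15 were negative, with 1 higher and 1 lower at an unadjusted p under 0.05. The higher one was Nkd2, which binds Dishevelled and dampens Wnt, at 0.507, 3.42, 1.78 and 1.83 CPM in the wild type and 0.928, 15.4, 8.68 and 3.32 CPM in the knock-out (log2 1.92 ± 0.77 SE, or 1.19 without knock-out library 2), and the lower one was Prox1, at 39.4, 17.1, 14.1 and 38.9 CPM in the wild type and 12.9, 22.96, 13.7 and 11.7 CPM in the knock-out (log2 -0.83 ± 0.36 SE). Apc and Dvl3, a scaffold of beta-catenin breakdown and a Dishevelled, had groups apart in the lower direction, at 188 to 316 against 176 to 188 CPM (log2 -0.38 ± 0.17 SE) and 56.0 to 109 against 51.9 to 55.4 CPM (log2 -0.44 ± 0.21 SE). Without wild-type library 1 they had -0.22 and -0.20. Of 37 Wnt pathway components these were the 2 with groups apart, against 1.94% of all genes lower in this way. So small a count is not read as a result about the pathway.

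Among other niche signals, a pair of feedback genes of the ERK pathway had groups apart. Spry2, an inhibitor of receptor tyrosine kinase signalling that the pathway induces, stood at 9.96, 9.41, 8.63 and 6.96 CPM in wild-type and 12.8, 18.2, 16.3 and 17.3 CPM in knock-out libraries (log2 0.89 ± 0.24 SE). Dusp5, a nuclear ERK phosphatase, stood at 15.1, 23.6, 23.6 and 13.4 CPM in the wild type and 25.4, 40.0, 26.4 and 26.4 CPM in the knock-out (log2 0.65 ± 0.26 SE). They were the 2 of 23 members of the EGF and MAPK list at an unadjusted p under 0.05 (8.7% against 2.72% of all genes higher). Ier2, an immediate early gene, stood at 109, 127, 114 and 86.3 CPM in the wild type and 145, 155, 132 and 151 CPM in the knock-out (log2 0.42 ± 0.15 SE), also apart, as the single such member of 24 immediate early genes tested. Of all genes 2.03% were apart in that direction. Bmpr1a, a receptor of the BMP signal that counters stemness, stood at 253, 137, 146 and 159 CPM in the wild type and 128, 112, 129 and 123 CPM in the knock-out (log2 -0.50 ± 0.20 SE), and Acvr1, another receptor of this family, had 23.1 to 34.6 against 21.8 to 22.5 CPM (log2 -0.29 ± 0.20 SE). Without wild-type library 1 they had -0.27 and -0.15. These were the 2 of 16 BMP genes with groups apart, against 1.94% of all genes lower in this way. So small a count is not read as a result about the pathway. In the Hippo and Yap list, Tead1 and the angiomotin Amotl1 (log2 -0.95 ± 0.31 SE) were lower and Krt7 (log2 0.44 ± 0.19 SE) higher at an unadjusted p under 0.05. In the Notch list 12 of 23 members were positive, and 0 reached that level.

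Among partners of Dlg1 and regulators of Cdc42 the share of members at an unadjusted p under 0.05 was near the background. Mpp6, a membrane-associated guanylate kinase scaffold like Dlg1, stood at 102, 59.0, 71.8 and 65.7 CPM in wild-type and 49.7, 53.8, 55.1 and 53.9 CPM in knock-out libraries (log2 -0.49 ± 0.19 SE, or -0.31 without wild-type library 1), with groups apart, while Dlg3, a paralog of Dlg1, had 0.41 ± 0.23 (SE) with overlap. Of 21 Dlg scaffolds and partners tested, 1 was higher, Mpp2 at 0.0362 to 1.13 against 0.167 to 5.97 CPM, and 1 lower, Mpp6, at an unadjusted p under 0.05 (4.76% and 4.76% against 2.72% and 2.19% of all genes). Cdc42ep5, an effector that binds active Cdc42, stood at 5.58, 17.4, 12.9 and 17.2 CPM in the wild type and 18.6, 35.3, 21.9 and 22.0 CPM in the knock-out (log2 0.88 ± 0.35 SE). Arhgap1, a GTPase-activating protein for Cdc42, stood at 71.6, 66.2, 63.7 and 58.2 CPM in the wild type and 50.5, 49.4, 56.2 and 49.9 CPM in the knock-out (log2 -0.33 ± 0.15 SE). Both had groups apart. Of 50 regulators and effectors of Cdc42 and Rac 19 were positive, 2 higher and 2 lower at an unadjusted p under 0.05 (4% and 4%). The higher ones were Cdc42ep5 and Baiap2, which links Cdc42 to actin (log2 1.05 ± 0.44 SE), and the lower ones Arhgap31 and Arhgap1. Cdc42 itself had 125 to 162 CPM in wild-type and 105 to 184 CPM in knock-out libraries. No member of 18 polarity genes and none of 29 junction genes had an unadjusted p under 0.05. Among the junction genes Pkp2, a desmosome plaque protein, and Cldn23, a claudin, had groups apart at -0.32 ± 0.15 (SE) and -0.55 ± 0.28 (SE), against 1.94% of all genes lower in this way.

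Secretory cell markers differed widely between libraries of the same genotype, and knock-out library 2 held the highest mean log2 CPM for 3 of the 4 types. The mean of the tuft cell list relative to the wild type was 0.47, 1.97, -0.18 and 0.86 in knock-out and -0.31, 0.65, -0.55 and 0.22 in wild-type libraries, and its median of 1.13 was 0.36 without knock-out library 2. The summed CPM of the list, which its abundant members dominate, went the other way. It was 415 to 851 CPM in wild-type and 335 to 481 CPM in knock-out libraries, highest in wild-type library 1. Trpm5, a taste-transduction channel of tuft cells, stood at 5.07, 9.80, 2.01 and 2.59 CPM in wild-type and 6.35, 17.7, 3.87 and 3.32 CPM in knock-out libraries. The enteroendocrine list gave 0.42, 1.26, -1.06 and -0.70 in knock-out libraries, with Chgb, a granin of hormone granules, at 62.8, 243, 19.4 and 71.2 CPM there and 129, 94.5, 106 and 76.8 CPM in the wild type. Of 21 goblet cell markers 17 were positive, 4 were higher and 1 lower at an unadjusted p under 0.05. The lower one was Sytl2, a granule transport protein (log2 -0.81 ± 0.36 SE). The higher ones beside Clca1 were the trefoil factor Tff3 at 46.5, 37.6, 35.3 and 42.1 CPM in the wild type and 43.3, 122, 82.1 and 45.9 CPM in the knock-out (log2 0.86 ± 0.30 SE, or 0.50 without knock-out library 2), the membrane mucin Muc3 (log2 0.74 ± 0.24 SE) and the guanylin gene Guca2a (log2 0.996 ± 0.39 SE). The gel-forming mucin Muc2 stood at 226, 301, 243 and 236 CPM in the wild type and 166, 494, 294 and 247 CPM in the knock-out, highest in knock-out library 2. Paneth cell genes ranged widely within the wild type, with Lyz1, lysozyme, at 196, 244, 1414 and 82.8 CPM there and 269.7, 525, 504 and 199 CPM in the knock-out. Knock-out library 2 also had the highest heat shock levels, with Hspa1b, an inducible chaperone with a near-identical copy, at 5.72, 79.1, 18.5 and 19.5 CPM in knock-out and 14.9, 9.75, 9.67 and 2.48 CPM in wild-type libraries (log2 1.74 ± 0.69 SE, or 0.66 without that library).

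Subunits of the immunoproteasome, which cuts proteins into peptides for MHC class I, were among the genes with higher values. Psmb9 stood at 29.9, 40.1, 49.5 and 39.8 CPM in wild-type and 53.3, 67.5, 65.6 and 62.1 CPM in knock-out libraries (log2 0.64 ± 0.18 SE), with groups apart, and Psmb10 at 16.5, 16.9, 26.8 and 17.2 CPM in the wild type and 25.4, 33.5, 38.04 and 28.9 CPM in the knock-out (log2 0.70 ± 0.23 SE), with wild-type library 3 inside the knock-out range. The class I heavy chain H2-D1, whose family holds close copies, had 0.41 ± 0.16 (SE). Of 18 class I genes tested 3 were higher (16.7% against 2.72% of all genes) and 0 lower at an unadjusted p under 0.05. Oasl1, an interferon-stimulated gene, stood at 6.81, 4.06, 4.14 and 5.29 CPM in the wild type and 13.8, 8.54, 7.91 and 9.15 CPM in the knock-out (log2 0.95 ± 0.32 SE), apart, but the 33 interferon-stimulated genes as a list had a median of 0.14 with 2 higher, the other being Irf1 (log2 0.43 ± 0.18 SE), and 0 lower. MHC class II genes, which crypt cells can express, had no member at that level. Among the cholesterol genes Hsd17b7, an enzyme of cholesterol synthesis, had groups apart (log2 -0.33 ± 0.17 SE). Without wild-type library 1 Psmb9 had 0.52.

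The 30 genes of smallest p were looked up in the 14 day libraries, 5 per genotype, which had no part in choosing them. Of the 15 higher genes all 15 were tested at 14 days, 8 kept a positive fold change, 0 had an unadjusted p under 0.05 (background 3.99%), and the median was 0.08 against 1.83 at 2 days. Of the 15 lower genes 13 were tested, 6 kept a negative fold change, 0 had an unadjusted p under 0.05, and the median was 0.00 against -1.11. At 14 days Gsdmc2 had -0.24 ± 0.44 (SE), with 14.6 to 54.4 CPM in wild-type and 10.4 to 54.4 CPM in knock-out libraries. Both genotypes at 14 days thus lay above the wild type at 2 days and within the range of the knock-out at 2 days, but the times are separate tables and may be separate runs, which cannot be told apart from time. Cox7a1 had 0.10 ± 0.59 (SE). Outside these 30, Arhgap31 at 14 days had -2.55 ± 0.38 (SE), with 6.61 to 13.03 CPM in wild-type and 0.601 to 2.90 CPM in knock-out libraries, so its groups were apart at both times although it was not called at either (adjusted p = 0.145 at 14 days by the F-test of edgeR). Dlg1 had -0.17 ± 0.22 (SE) at 14 days. Tead1 had -0.37 ± 0.21 (SE) and Clca1 0.47 ± 0.32 (SE). The test of the difference itself, an interaction in 1 fit of all 18 libraries, called none of the 30 (quasi-likelihood F-test of edgeR, Benjamini-Hochberg adjusted, smallest adjusted p = 0.289), with an unadjusted p under 0.05 for 13 of 15 higher and 11 of 15 lower genes against 5.96% of all genes. The interaction contains the same 2 day values by which these genes were chosen, so a high share of small p was built in. Nothing is read from that share or from smaller values at another time. The trend on exon length was present at 14 days too, with a median log2 fold change of 0.24 in the shortest and -0.02 in the longest bin.

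**Figure D5:**
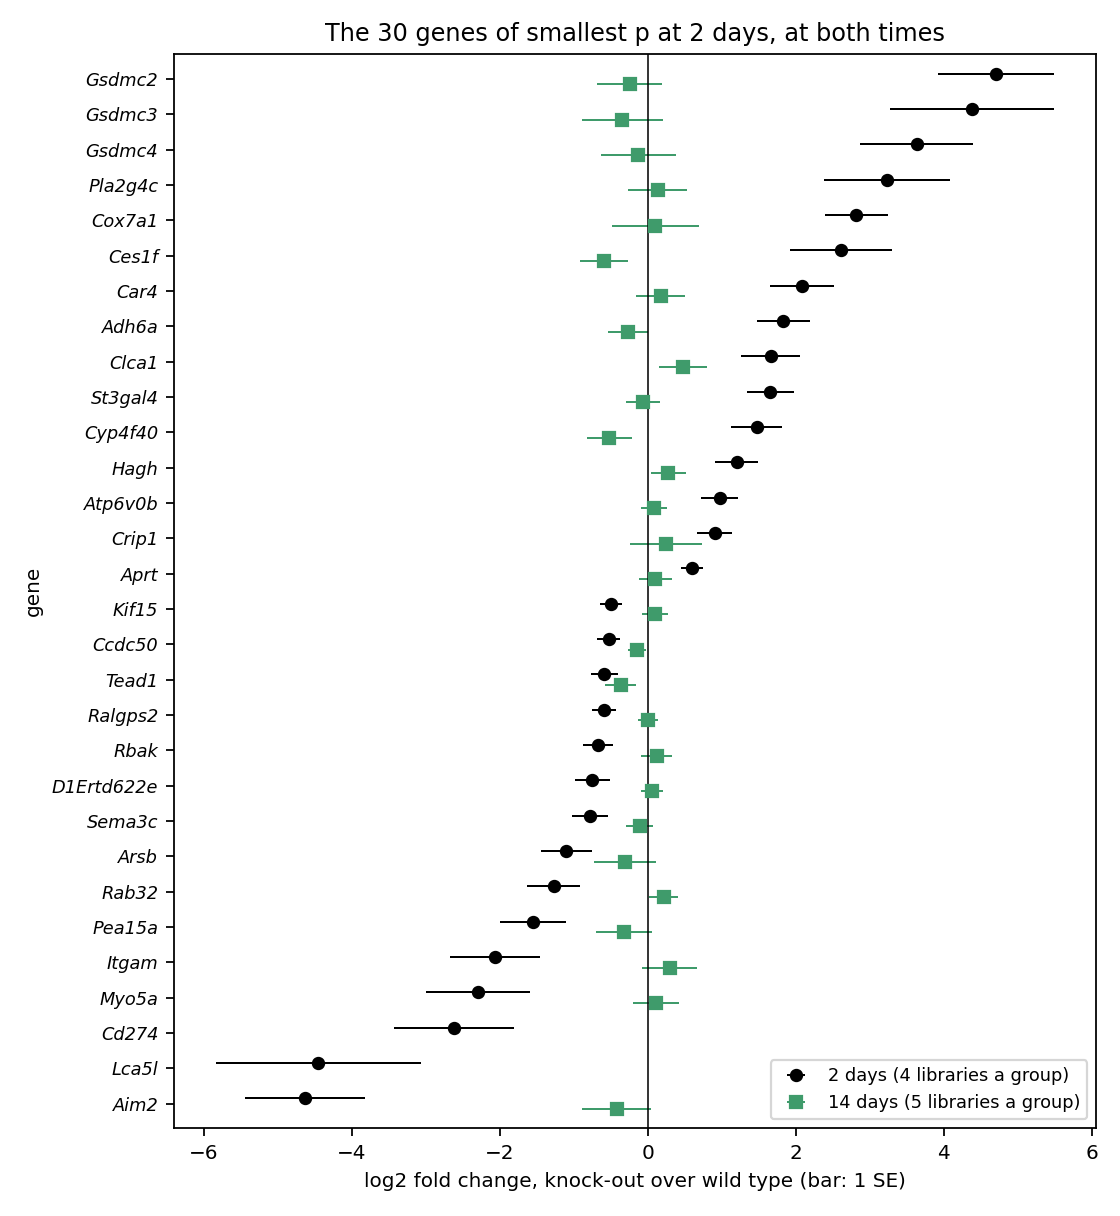
Log2 fold change of knock-out over wild type with 1 standard error for the 30 genes of smallest p at 2 days (black circles, 4 libraries a group) and the same genes at 14 days (green squares, 5 libraries a group, where tested). At 14 days the squares lie between -0.60 and 0.47, on both sides of 0.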

How the data were processed

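RNA-seq libraries (Smart-seq cDNA from bead-selected poly(A) mRNA, Nextera XT, no molecular identifiers, per the labels) were compared between 4 Dlg1 knock-out and 4 wild-type libraries. The authors deposited whole-number read counts per Ensembl gene, 1 column per library, 43432 gene IDs of which 42548 matched a symbol in GENCODE M21. The submitters' processing notes name bcl2fastq 2.20.0.422, STAR 2.4.2a and GRCm38. The annotation, the counting program, the strand setting and the treatment of multi-mapped reads were not given in the sources used here, so overlapping genes and near copies cannot be separated.

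Groups came from the labels and the column names, where Dmin was read as Dlg1 minus. The filter on low counts was filterByExpr at a minimum of 10, and counts were scaled by TMM and tested with edgeR 4.0.16 (R 4.3.3) by the quasi-likelihood test, with p-values adjusted by Benjamini-Hochberg over all genes tested and called at an adjusted p under 0.05. CPM were computed from TMM-scaled totals, and log2 CPM and the means of gene lists used a prior count of 2. The standard errors and p-values of single genes come from that fit, and no p is given for a list. The test was checked on simulated data. Counting error depends on total counts and TMM factors, and covers no other error. Alternatives were other scalings (RLE, upper quartile), filters of none and 50, DESeq2 1.42.0, limma voom (limma 3.58.1), edgeR's likelihood-ratio test, a Y-linked covariate, a joint fit of all 18 libraries, and leaving out each library. A block on column number series, removal of the trend on exon length, and leaving out wild-type library 1 with knock-out library 1 were added after seeing the data.

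Genes were named by a rule: the 15 of smallest p in each direction with an average log2 CPM of at least 2 that are not predicted models, from each of 51 gene lists up to 5 of smallest p and 3 of highest level, the gasdermin C cluster, Dlg1, Arhgap31 and Cdc42. Dgat1 and Zfp354c were named after their values were seen. The comparison, the lists and the rule were chosen with earlier results of these data known. Of the 51 lists, 48 had at least 3 tested members, and those with nothing beyond the background are not described singly. Some genes that the rule names are not reported here.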

Additional observations from a re-analysis of the deposited data

Results flagged for a closer look

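Of 302 groups of 4 libraries (library measures, list means and genes named in the text), 24 held 1 library whose gap to its nearest neighbour, as a share of the whole range, was above Dixon's 95% critical value. Chance gives about 1 in 20, here 15.1.

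Total counts had a ratio of 0.839 for the highest wild-type library and the number of genes with a count 0.916 for the lowest wild-type library, library 1 in both. Among list means the ratios were 0.878 for the highest library of the knock-out in the M cell markers, 0.832 for the highest library of the wild type in the Wnt target and feedback genes and 0.876 for the highest library of the knock-out in the nuclear respiratory chain. Among genes on the log2 CPM scale, the lowest library of the wild type stood apart with a ratio of 0.883 for Zfp354c, 0.914 for Aim2, 0.870 for Cyp4f40, 0.952 for Dgat1, 0.923 for Slc2a2, 0.836 for Slc7a9, 0.903 for Slc51a and 0.891 for Ralgps2. Among genes on the log2 CPM scale, the lowest library of the knock-out stood apart with a ratio of 0.833 for Zfp354c and 0.907 for Atp6v0b. Among genes on the log2 CPM scale, the highest library of the wild type stood apart with a ratio of 0.853 for Clca1, 0.911 for Sis, 0.878 for Itgam, 0.872 for Ckap2l, 0.884 for Prim1 and 0.925 for Psmb10. Among genes on the log2 CPM scale, the highest library of the knock-out stood apart with a ratio of 0.857 for Adh6a, 0.948 for Atp5a1 and 0.909 for Dusp5.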

How the results depend on the processing

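No paired analysis was possible because the columns carry no replicate number of the labels. The number of genes called, 0, was 7 with no filter on low counts, 8 by edgeR's likelihood-ratio test, 13 by DESeq2, 2 with a Y-linked covariate, 2 in the joint fit of all 18 libraries, and 0 to 1 when 1 library was left out. Genes higher at an unadjusted p under 0.05, 355, numbered 867 with no filter, 727 in the joint fit, 146 with the column number series as a block, 191 with the length trend removed, and 271 to 515 when 1 library was left out. Genes lower, 285, numbered 748, 568, 27 and 369 under the same 4 settings and 142 to 460. Of the genes at that level 55.5% were higher, and the share was 68.2% by voom, 34.1% with the length trend removed and 84.4% with the block. It was 69.4% without wild-type library 1, but 46.6%, 47.3% and 48.7% without wild-type libraries 2, 3 and 4, where more genes were lower than higher. Without knock-out libraries 1, 2, 3 and 4 it was 56.3%, 55.2%, 56.6% and 65.6%. The direction of the excess is therefore not stable. Genes whose groups did not overlap, 265 higher and 253 lower, numbered 416 to 527 and 354 to 527 when 1 library was left out, since 3 against 4 libraries overlap less often. The mean difference between knock-out and wild type in total counts, -0.0636 M counts (M, mega), ranged over -5.28 to 5.85 M counts, in the share of mitochondrially encoded genes, 1.18 percentage points, over -1.55 to 6.11, and in the share of the top 50 genes, 0.579 points, over -2.05 to 5.18, when 1 library was left out. With no filter, 3 of the genes named at 2 days had an unadjusted p under 0.05 at 14 days, and 14 were called for the difference between times. That difference contains the 2 day values by which the genes were chosen.

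Of 99 genes followed, 4 changed sign under any setting: Atp5a1 had 0.0911 with the block, 0.207 without wild-type library 1 (range -0.65 to 0.21 when 1 library was left out) and 0.243 without wild-type library 1 and knock-out library 1, Apoa4 had -0.00737 without those 2 libraries, and Lgr5 had 0.0801 and Ascl2 0.0167 with the block. The cause was not tested. Genes with few counts per library, such as Zfp354c, Arhgap31 and Alox5ap, are limited by depth.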

Other observations

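Among list members not named above, a few had an unadjusted p under 0.05. Spib, a transcription factor of M cells and tuft cells, stood at 1.50 ± 0.69 (SE) on the log2 scale, and Reg3b, an antimicrobial lectin of Paneth cells, 1.35 ± 0.48 (SE). Maf, of the enterocyte lineage factors, had 0.96 ± 0.42 (SE). On the lower side Zmat3, a p53 target, had -0.57 ± 0.26 (SE), Cd24a, a surface protein of tuft and Paneth cells, -0.61 ± 0.25 (SE), and Pou2af1, a coactivator of B cells, -2.03 ± 0.82 (SE). No member of the lists of the unfolded protein response, of mitochondrially encoded genes or of enteroendocrine markers reached that level.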
